A study of Mus musculus with 10 samples.

Results

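Invariant natural killer T (NKT) cells were picked out of 5 mouse livers carrying metastases of colorectal cancer by their T cell receptor alone. A cell barcode was taken when its filtered receptor contigs held a productive alpha chain that joins the variable gene TRAV11 (or TRAV11D) to the joining gene TRAJ18, and 97 of 28039 barcodes met this rule, all with TRAV11. The livers fell into 3 groups of treated mice. IFNa + aCTLA4 (a lentiviral vector, LV, for interferon alpha given with an antibody to the checkpoint receptor CTLA-4) had liver 22, IFNa (the IFNa LV alone) had livers 18 and 23, and Control (a control LV) had livers 11 and 25. Every liver carried metastases, so the series holds no tumour-free liver. The 97 barcodes numbered 48 in IFNa + aCTLA4 liver 22, 18 and 18 in IFNa livers 18 and 23, and 9 and 4 in Control livers 11 and 25. After filters on genes, mitochondrial share and doublets, 88 remained, namely 42 in liver 22, 18 and 17 in livers 18 and 23, and 7 and 4 in livers 11 and 25. They were compared with the 5547 other T cells of the same livers, which are the remaining filtered barcodes with a productive receptor beta chain. Of these, 827 had no alpha chain contig, so the rule could not judge them.

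Invariant NKT cells are T cells of a nearly fixed alpha chain that reads lipid antigens held by CD1d, a molecule related to MHC class I. They mature under the transcription factor PLZF, the product of Zbtb16, take on receptors otherwise found on NK cells, such as NK1.1, the product of Klrb1c, and in mice they gather in the liver, where they answer quickly with cytokines. Subsets are named by their regulators and cytokines: NKT1 cells are known for T-bet (Tbx21) and NK receptors, NKT2 cells for interleukin 4, and NKT17 cells for interleukin 17.

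The livers were digested to single cells without antibody, and viable cells were sorted before droplet sequencing of transcripts, counted as unique molecular identifiers (UMIs), and of receptor chains. The libraries held 69856071 UMIs in IFNa + aCTLA4 liver 22, 48124364 and 53608465 in IFNa livers 18 and 23, and 55351421 and 10464216 in Control livers 11 and 25. The 88 invariant NKT cells had a median of 5620.5 UMIs, and the other T cells 6364. Of 27639 distinct barcode sequences, 398 occurred in more than 1 library. The sequences of 6 invariant NKT barcodes did so, and none of them carried the invariant chain in 2 libraries. Nothing in the labels ties a liver to a mouse of its own, and the p-values given here therefore reflect sample-to-sample spread that may be technical. Control liver 25 gave 4 invariant NKT cells and was left out of the fits of summed counts, which took livers with at least 5, so the comparisons between cell classes rest on 4 livers.

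The 4 nucleotide forms below are the most frequent complementarity-determining regions 3 (CDR3, from the conserved cysteine codon to the phenylalanine codon). Capitals mark bases that match neither the end of Trav11 nor Traj18, the genes in the reference annotation (GRCm38) at chr14:53519303-53519859 and chr14:54200777-54200842, both on the plus strand.
Form in 32 barcodes of 5 livers: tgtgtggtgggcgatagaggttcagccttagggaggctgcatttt
Form in 29 barcodes of 5 livers: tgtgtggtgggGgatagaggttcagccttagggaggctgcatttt
Form in 13 barcodes of 4 livers: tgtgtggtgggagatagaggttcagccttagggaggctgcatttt
Form in 11 barcodes of 3 livers: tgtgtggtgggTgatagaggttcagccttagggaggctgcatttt
These forms differ at a single base, the last of the fourth codon, and encode the same protein. It was carried by 85 of the 97 barcodes (87.6%). The first and the third form hold no base from outside the germline genes, and the second and the fourth hold 1. In all, the 97 chains comprised 13 nucleotide forms and 7 proteins, and 96 of them were 45 bases long. The 6161 other alpha contigs comprised 3200 nucleotide forms and 2987 proteins, and their most frequent protein made up 3.81% of them. The rule fixes the V and the J gene of the 97 chains and of none of the others, so their lower diversity is largely set by the rule.

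The beta chains, which the rule did not read, told the cells apart. Of the 88 filtered cells, 85 had a beta chain, and their 92 beta contigs were of 90 distinct nucleotide sequences. Only 3 of these 85 cells (3.53%) shared a beta chain with another cell, against 2818 of the 5547 other T cells (50.8%), whose largest group of 1 beta chain held 210 cells. By liver the share of other T cells with a repeated beta chain was 61.9% in IFNa + aCTLA4 liver 22, 32.4% and 50.7% in IFNa livers 18 and 23, and 28.8% and 16.8% in Control livers 11 and 25. The chance of finding a repeat grows with the number of cells, which differs between the classes, so these shares are a description. The 3 cells with a shared beta chain came from liver 22 and also shared an alpha chain, which makes them 1 clone. Its sequences are shown because it held the only repeated beta chain among the barcodes that met the rule. Its beta chain joins TRBV3 to TRBJ2-1, genes of chromosome 6, and is printed with no capitals.
Clone alpha CDR3: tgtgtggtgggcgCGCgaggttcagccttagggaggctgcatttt
Clone beta CDR3: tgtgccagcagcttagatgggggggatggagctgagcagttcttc
All 3 cells of the clone had Cd4 UMIs, and none had a UMI of Zbtb16 or Klrb1c. Their alpha protein was not the most frequent one, and they are counted as invariant NKT cells only because they met the rule.

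Beta-chain genes of invariant NKT cells were drawn from few families. In mice these cells are known for the TRBV13, TRBV29 and TRBV1 families. These families made up 37 of 41 invariant NKT cells (90.2%) in IFNa + aCTLA4 liver 22 and every cell in the other livers, which were 17 and 17 in IFNa livers 18 and 23 and 7 and 3 in Control livers 11 and 25. In other T cells the share was 37.3% in liver 22, 31.6% and 27.1% in livers 18 and 23, and 35.7% and 31.9% in livers 11 and 25. The classes did not overlap in any liver. TRBV3, the gene of the clone above, lies outside these families and was used by 3 cells of liver 22. The mean over livers was 98.0% ± 4.36 in invariant NKT cells and 32.7% ± 3.98 in other T cells (SD, n = 5). The exact paired permutation test, two-sided, gave p = 0.0625, the smallest value that 5 livers allow.

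The gene named TRBV12-2+TRBV13-2 in the contig tables was the most frequent. Among invariant NKT cells it was used by 43.9% in IFNa + aCTLA4 liver 22, 29.4% and 52.9% in IFNa livers 18 and 23, and 28.6% and 33.3% in Control livers 11 and 25. Among other T cells it was used by 8.16% in liver 22, 9.83% and 10.2% in livers 18 and 23, and 10.3% and 10.9% in livers 11 and 25. Every liver stood higher in invariant NKT cells. With edgeR's quasi-likelihood test on barcodes per gene, 6 of 21 TRBV genes tested (28.6%) passed an adjusted p of 0.05. TRBV12-2+TRBV13-2 was higher by 2.19 ± 0.39 on the log2 scale (SE, adjusted p = 8.63e-06) and TRBV29 by 2.43 ± 0.49 (adjusted p = 6.51e-05). TRBV29 was used by 17 of 85 invariant NKT cells and by 3.53% of other T cells. TRBV13-1 was higher by 1.72 ± 0.51 (adjusted p = 0.00672), but its adjusted p was 0.0713 without IFNa liver 18 and 0.0929 without IFNa liver 23. The 3 genes that were lower, TRBV16, TRBV10 and TRBV12-1, had no invariant NKT cell, and all of them missed the threshold without liver 22 (adjusted p of 0.161, 0.134 and 0.134) or without liver 23 (0.139, 0.139 and 0.152). Without liver 18, TRBV10 and TRBV12-1 missed it too (0.0713 and 0.107), as did TRBV12-1 without liver 11 (0.0505). In other T cells these genes were used by 12.4%, 6.54% and 4.83% of cells. Among TRBJ genes, 1 of 12 (8.33%) passed, TRBJ1-5, used by 10.6% of invariant NKT cells and 1.82% of other T cells. It was higher by 2.59 ± 0.52 (adjusted p = 0.00205), and missed the threshold without liver 22 (0.561), liver 23 (0.0783) or liver 11 (0.143).

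**Figure D1:**
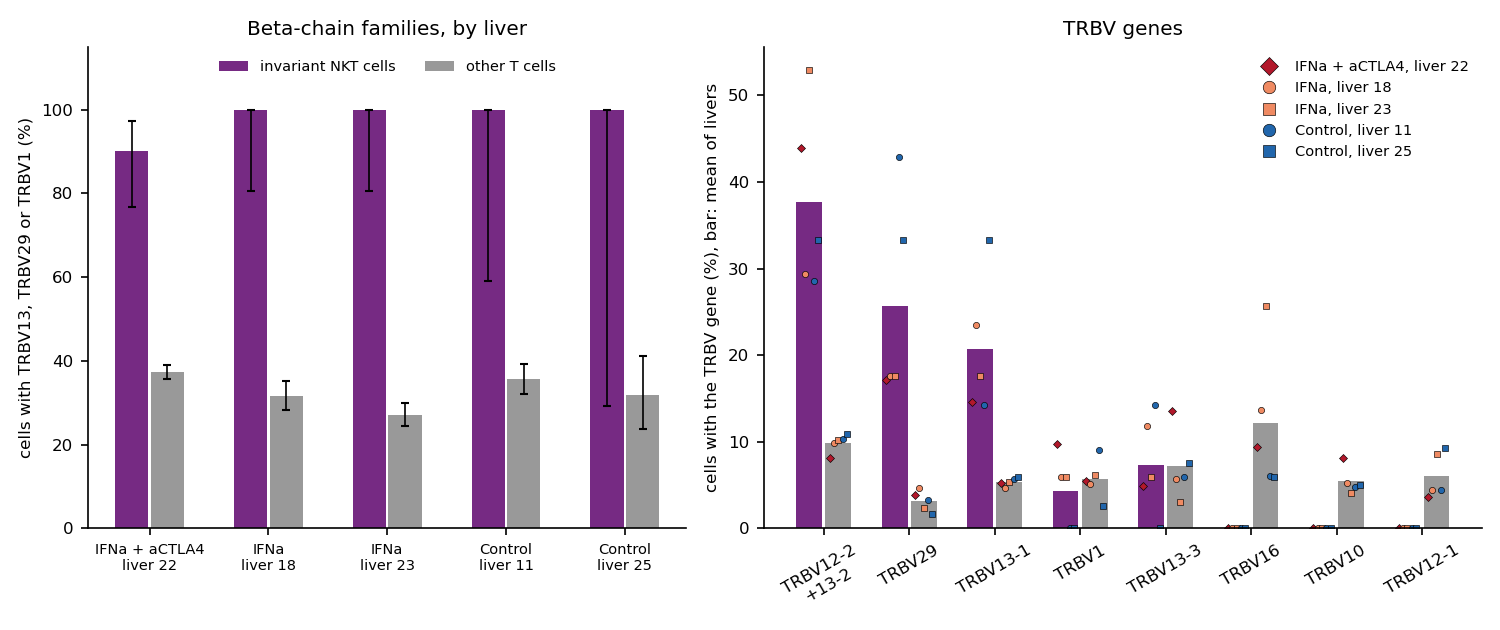
Left, the share of cells (%) whose beta chain uses the TRBV13, TRBV29 or TRBV1 family, by liver, in invariant NKT cells (purple) and other T cells (grey), with exact 95% binomial intervals, which cover counting error only. Right, the share of cells (%) with single TRBV genes, where bars are means of the 5 livers and points are livers. Invariant NKT cells stand at 90.2% or more in every liver and other T cells at 37.3% or less.

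The defining markers matched the receptor. Zbtb16 (ENSMUSG00000066687, chr9:48654297-48836222) stood in invariant NKT cells at 149 CPM (counts of the gene scaled to the summed UMIs of the cells of a class in a liver) in IFNa + aCTLA4 liver 22, 105 and 30.2 CPM in IFNa livers 18 and 23, and 123 and 466 CPM in Control livers 11 and 25. Other T cells had 3.76 CPM in liver 22, 5.85 and 7.15 CPM in livers 18 and 23, and 4.21 and 0.812 CPM in livers 11 and 25. The lowest invariant NKT value, in liver 23, was above the highest value of other T cells. The log2 fold change was 4.19 ± 0.48 (SE, edgeR adjusted p = 1.89e-15). Klrb1c (ENSMUSG00000030325, chr6:128778485-128789215) stood at 249 CPM in liver 22, 316 and 363 CPM in livers 18 and 23, and 317 and 249 CPM in livers 11 and 25 in invariant NKT cells. Other T cells had 23.5 CPM in liver 22, 38.8 and 45.0 CPM in livers 18 and 23, and 20.9 and 18.7 CPM in livers 11 and 25. The classes did not overlap, and the log2 fold change was 3.16 ± 0.24 (adjusted p = 1.11e-34).

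Per cell the markers were sparse. Zbtb16 UMIs were found in 33 of 88 invariant NKT cells (37.5%), in 2.06% of other T cells, in 9.89% of NK cells and in 0.0271% of B cells, which should lack it. With each cell thinned to 2400 UMIs the shares were 21.6%, 1.18%, 3.44% and 0%. Klrb1c UMIs were found in 46 of 88 (52.3%) and, thinned, in 37.5% of invariant NKT cells, 4.87% of other T cells, 76.8% of NK cells and 0.0285% of B cells. Median depths were 5620.5 UMIs in invariant NKT cells, 6364 in other T cells, 5478.5 in NK cells and 4309.5 in B cells. Thinning left out 0 invariant NKT cells, 287 other T cells, 122 NK cells and 184 B cells. Both markers were seen in 19 invariant NKT cells, Zbtb16 alone in 14, Klrb1c alone in 27, and neither in 28. Cd3e was seen in all 88.

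Cells with receptors that share only a part of the invariant chain seldom held the markers. Zbtb16 was found in 1 of 30 cells with TRAV11 or TRAV11D joined to another TRAJ, and in 4 of 160 cells with TRAJ18 joined to another TRAV. Klrb1c was found in 2 and 13 of them. Among invariant NKT cells, the 76 with the most frequent alpha protein held Zbtb16 in 31 and Klrb1c in 43, and the 12 with another alpha protein held them in 2 and 3, of which the clone above accounts for 3 cells with neither. Another innate-like receptor, TRAV1 joined to TRAJ33, which is the chain of mucosal-associated invariant T cells, was found in 12 other T cells, and 10 of them held Zbtb16 and 2 Klrb1c.

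Most invariant NKT cells showed no co-receptor. UMIs of neither Cd4 nor Cd8 (Cd8a or Cd8b1) were found in 69 of 88 (78.4%), Cd4 alone in 15, Cd8 alone in 4 (4.55%) and both in 0, which allows a share of cells with UMIs of both of up to 3.41%. By liver the share with neither was 71.4% in IFNa + aCTLA4 liver 22, 77.8% and 88.2% in IFNa livers 18 and 23, and 85.7% and 100% in Control livers 11 and 25. Of other T cells 16.3% had neither, 26.8% Cd4 alone, 52.7% Cd8 alone and 4.31% both.

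No difference in the share of invariant NKT cells between IFNa and Control was detectable. Of barcodes with an alpha chain they made up 1.57% in IFNa + aCTLA4 liver 22, 2.81% and 1.82% in IFNa livers 18 and 23, and 1.06% and 3.64% in Control livers 11 and 25. The IFNa livers lay between both Control livers. Their mean was 2.32% ± 0.703 in IFNa and 2.35% ± 1.82 in Control (SD, n = 2 each), a difference of -0.0323 percentage points with an exact permutation p of 1, where 0.333 is the smallest possible. Control liver 25 held 4 such cells among 110 barcodes (exact 95% interval 1.00% to 9.05%), and without it the difference was 1.26 points. Of all filtered cells, invariant NKT cells made up 0.472% in liver 22, 0.304% and 0.32% in livers 18 and 23, and 0.130% and 0.473% in livers 11 and 25. The difference between IFNa and Control was 0.0104 points (exact permutation p of 1), and these shares depend on how many other cells each digest yielded.

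Against other T cells of the same livers, invariant NKT cells carried more transcript of several NK receptors and of receptors for interleukins 12 and 18, and less of checkpoint receptors, of CD8 and of the chemokines Ccl3 and Ccl4. Of 11180 genes tested, 642 (5.74%) passed an adjusted p of 0.05 in edgeR, 214 (1.91%) higher and 428 (3.83%) lower. The median log2 fold change over all genes tested was -0.16. The counts of the gene lists below are to be read beside these shares of 1.91% and 3.83% and this median. The split depended on the method, with 170 higher and 131 lower in DESeq2 and 244 higher and 163 lower in limma voom with a weight per class. Without liver 22 the count was 316, and without liver 23 it was 350. Values below are edgeR log2 fold changes of invariant NKT cells over other T cells with their SE.

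Many NK receptors were higher. Of 23 tested, 11 were higher and 1 lower, with a median log2 fold change of 0.87. Klra9, a receptor of the Ly49 family, stood at 192 CPM in IFNa + aCTLA4 liver 22, 76.5 and 272 CPM in IFNa livers 18 and 23, and 141 and 187 CPM in Control livers 11 and 25. In other T cells it stood at 5.34 CPM in liver 22, 12.3 and 5.63 CPM in livers 18 and 23, and 2.20 and 6.50 CPM in livers 11 and 25. The classes did not overlap, and the fold change was 4.71 ± 0.36 (adjusted p = 4.48e-36). Klrk1, which encodes the activating receptor NKG2D, stood at 413 CPM in liver 22, 469 and 726 CPM in livers 18 and 23, and 423 and 249 CPM in livers 11 and 25, against 177 CPM in liver 22, 117 and 162 CPM in livers 18 and 23, and 81.4 and 121 CPM in livers 11 and 25 in other T cells. It was higher in every liver, by 1.75 ± 0.21 (adjusted p = 8.54e-15). Klrc2, which encodes NKG2C, was higher by 2.44 ± 0.28, Klra1 by 2.17 ± 0.31, Klrb1b by 2.05 ± 0.53 and Klre1 by 1.13 ± 0.25. Klre1 did not pass in limma voom or against other T cells with Cd8 alone. Klra5 was uneven, at 17.8 CPM in liver 22, 9.57 and 313 CPM in livers 18 and 23, and 159 and 0 CPM in livers 11 and 25, against 3.12 to 6.06 CPM in other T cells (4.05 ± 0.58). Klrg1, a receptor of antigen-experienced T and NK cells, was lower by 2.93 on the log2 scale (fold change -2.93 ± 0.51, adjusted p = 6.80e-07), but did not pass in DESeq2 (adjusted p = 0.196) or against other T cells with Cd8 alone (-0.38, adjusted p = 0.907). Klrd1, the partner chain of NKG2 receptors, did not pass (0.22 ± 0.19, adjusted p = 0.682). Genes of the Klra and Klrc families are near-identical, and reads may have been shared among their members.

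Receptors for cytokines that activate NKT1 cells were also higher. Il12rb2, the signalling chain of the interleukin 12 receptor, stood at 331 CPM in IFNa + aCTLA4 liver 22, 268 and 262 CPM in IFNa livers 18 and 23, and 70.5 and 280 CPM in Control livers 11 and 25. Other T cells had 66.6 CPM in liver 22, 34.3 and 39.1 CPM in livers 18 and 23, and 22.2 and 49.6 CPM in livers 11 and 25. It was higher in every liver, by 2.38 ± 0.26 (adjusted p = 1.51e-17). Il18rap was higher by 1.30 ± 0.25 (adjusted p = 9.22e-06) and Il18r1 by 1.00 ± 0.23 (adjusted p = 0.000604, and 0.0576 without liver 23). In limma voom neither passed (adjusted p of 0.0534 and 0.0731). Il7r and Il2rb passed in all 4 livers together (0.66 ± 0.18 and 0.50 on the log2 scale), and neither passed without liver 22 (adjusted p of 0.497 and 0.215) or liver 23 (0.599 and 0.277), nor did Il2rb without liver 18 (0.552). Il2ra, the alpha chain of the interleukin 2 receptor, was lower (-2.26 ± 0.31), but did not pass against other T cells with Cd8 alone. Of 16 cytokine receptor genes tested, 5 were higher and 1 lower, with a median of 0.25.

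Among lineage regulators 4 of 19 were higher and 4 lower, with a median of -0.15. Besides Zbtb16, Id2 was higher by 0.90 ± 0.18, and Zfp683, which encodes Hobit, a factor of tissue-resident lymphocytes, by 3.30 ± 0.50 (adjusted p = 6.43e-09). Zfp683 stood at 53.4 CPM in IFNa + aCTLA4 liver 22, 124 and 60.5 CPM in IFNa livers 18 and 23, and 88.1 and 31.1 CPM in Control livers 11 and 25, against 4.40 to 15.4 CPM in other T cells, with no overlap. Tox was lower (-1.99 ± 0.24), as were Eomes (-4.29 ± 0.94) and Egr2 (-3.69 ± 1.03). Tcf7 was lower by 0.99 on the log2 scale in 4 livers and missed the threshold without liver 18 (adjusted p = 0.178). Tbx21 and Gata3, which encode T-bet and GATA3, did not pass (0.68 ± 0.25, adjusted p = 0.0892, and 0.69 ± 0.27, adjusted p = 0.131).

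Interleukin 4 was the only one of 14 cytokines and chemokines tested that was higher, and 3 were lower. Il4 (chr11:53602982-53618669) stood at 89.0 CPM in IFNa + aCTLA4 liver 22, 38.3 and 30.2 CPM in IFNa livers 18 and 23, and 35.3 and 0 CPM in Control livers 11 and 25, against 2.99 CPM in liver 22, 8.39 and 1.95 CPM in livers 18 and 23, and 0.183 and 0 CPM in livers 11 and 25 in other T cells. It was higher in each of the 4 livers fitted, by 3.99 ± 0.67 (adjusted p = 2.86e-07), and was listed at 0 in both classes of Control liver 25. In Control liver 11 its only 2 UMIs lay in 1 barcode that also held 205 UMIs of the myeloid marker Cst3. In IFNa liver 23 its 3 UMIs lay in 1 cell. It was found in 17 invariant NKT cells (19.3%, 10.2% thinned), 0.685% of other T cells (0.323% thinned) and 0.0812% of B cells (0.0285% thinned). Ifng, for interferon gamma, did not pass (-0.39 ± 0.27, adjusted p = 0.540), with 57 CPM in liver 22, 335 and 101 CPM in livers 18 and 23, and 52.9 and 0 CPM in livers 11 and 25, against 45.1 to 250 CPM in other T cells. Ccl4, a chemokine of activated CD8 T and NK cells, stood at 10.7 CPM in liver 22, 0 and 131 CPM in livers 18 and 23, and 17.6 and 31.1 CPM in livers 11 and 25 in invariant NKT cells. Other T cells had 1208 CPM in liver 22, 299.8 and 1773 CPM in livers 18 and 23, and 497 and 111 CPM in livers 11 and 25, so it was lower in invariant NKT cells of every liver (-5.18 ± 0.28, adjusted p = 6.71e-71). Ccl3 was lower as well (-5.76 ± 0.46). Cd40lg, the ligand by which helper cells activate CD40-bearing cells, was higher by 1.65 ± 0.28 (adjusted p = 5.45e-07). Against other T cells with Cd4 alone it did not pass.

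Cytotoxic genes were split. Of 15 tested, 3 were higher and 7 lower, with a median of -0.50. Fasl, the death ligand, was higher by 1.44 ± 0.24, and the granzyme inhibitor Serpinb9 by 1.27 ± 0.24. Perforin (Prf1) was lower (-1.87 ± 0.31), as were Gzmk (-3.98 ± 0.63), Gzmc (-3.45 ± 0.62) and Cst7 (-1.99 ± 0.29). Gzma was lower by 1.37 on the log2 scale, but it stood at 887 CPM in IFNa liver 23 and between 0 and 95.7 CPM in the others, and without liver 22 it did not pass (-0.59, adjusted p = 0.449). Gzmb did not pass (0.17 ± 0.18, adjusted p = 0.736). Against other T cells with Cd4 alone, Gzma was higher rather than lower (1.63, adjusted p = 0.0408), and Prf1 did not pass (0.83, adjusted p = 0.311).

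Most checkpoint and exhaustion genes were lower. Of 13 tested, 10 were lower and none higher, with a median of -2.73, and among all genes 3.83% were lower. Pdcd1, which encodes PD-1, stood at 53.4 CPM in IFNa + aCTLA4 liver 22, 9.57 and 50.4 CPM in IFNa livers 18 and 23, and 0 and 31.1 CPM in Control livers 11 and 25. Other T cells had 362 CPM in liver 22, 199.5 and 318 CPM in livers 18 and 23, and 222 and 203 CPM in livers 11 and 25. The classes did not overlap, and the fold change was -3.23 ± 0.32 (adjusted p = 1.00e-21). Ctla4 stood at 135 CPM in invariant NKT cells of liver 22 and at 0 in those of the other 4 livers, against 537 CPM in other T cells of liver 22, 436 and 556 CPM in livers 18 and 23, and 629 and 721 CPM in livers 11 and 25 (-3.66 ± 0.27, adjusted p = 7.73e-38). Lag3 (-5.06 ± 0.43), Tigit (-3.82 ± 0.35), Havcr2, which encodes TIM-3 (-5.77 ± 0.72), and Tnfrsf4, which encodes OX40 (-4.27 ± 0.32), were lower too. Icos, a costimulatory receptor, did not pass (-0.49 ± 0.23, adjusted p = 0.245). Regulatory T cells, which carry Ctla4, are among the other T cells: Foxp3 had no UMI in any invariant NKT cell, against 67.8 CPM in other T cells of liver 22, 108 and 96.9 CPM in livers 18 and 23, and 160 and 209 CPM in livers 11 and 25. The 0 UMIs among 541365 in the 4 livers put Foxp3 at least 19.5-fold lower, with a floor of 3 UMIs over these livers. The comparison was repeated for 8 of these genes, Ctla4, Pdcd1, Tox, Tnfrsf9, Tnfrsf4, Lag3, Havcr2 and Tigit, with other T cells restricted to those with Cd4 alone or those with Cd8 alone, and all 8 were lower in both.

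**Figure D2:**
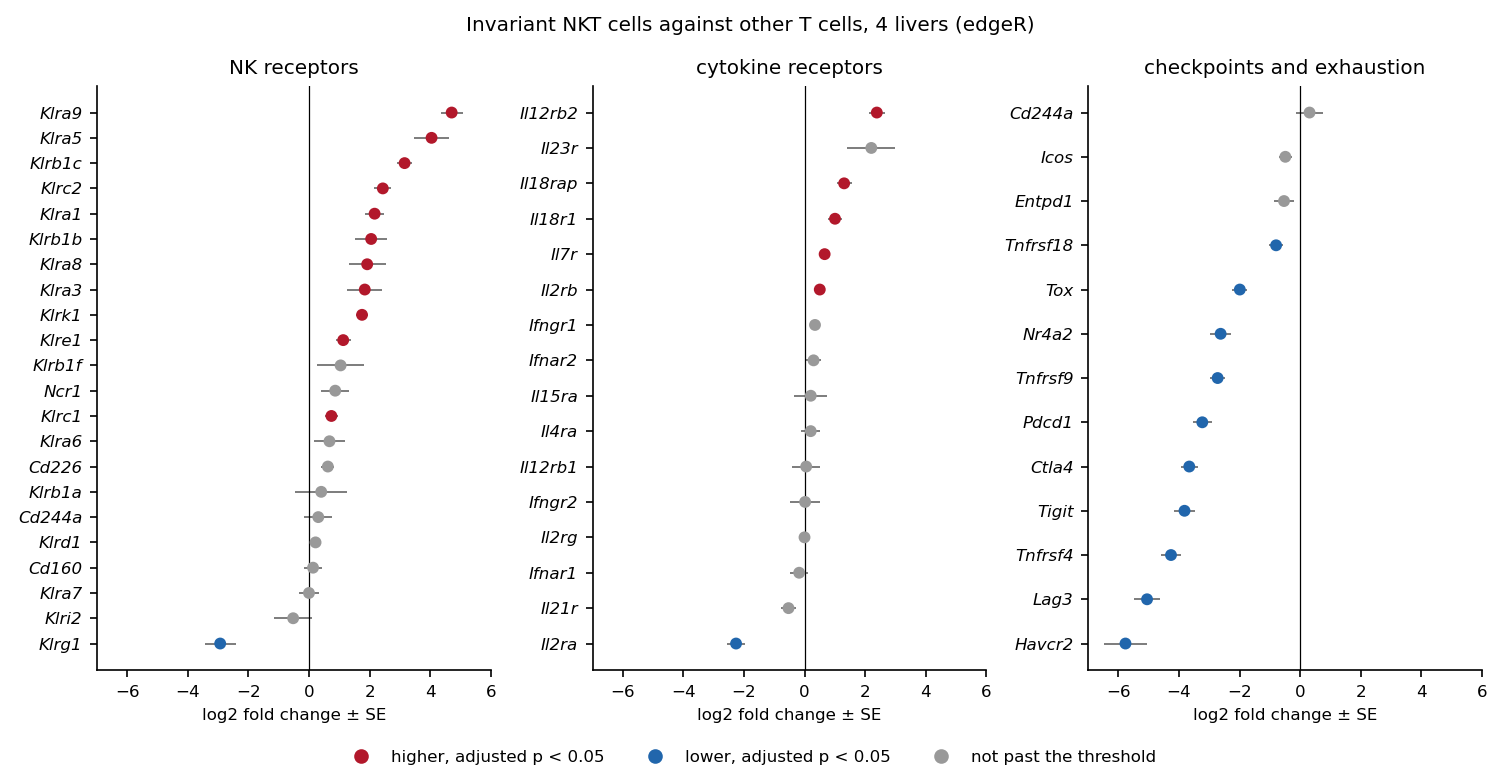
Log2 fold change ± SE (edgeR, 4 livers) of invariant NKT cells over other T cells for genes of 3 lists. Red and blue points passed an adjusted p of 0.05 and grey points did not. Klra4, with 0 UMIs in invariant NKT cells of these livers, is not drawn. Most NK receptors stand to the right of 0, led by Klra9 at 4.71, and most checkpoint genes to the left.

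Genes of the receptor complex and of naive T cells were lower in part. Of 13 receptor and co-receptor genes 7 were lower and none higher, led by Cd8b1 (-5.30 ± 0.34), which had 35.6 CPM in liver 22 and 0 in the other livers, against 366 to 691 CPM in other T cells. Cd4 (-1.60 ± 0.32) and Cd5, a brake on receptor signalling (-1.81 ± 0.26), were lower, and Cd3e was not past the threshold (-0.47 ± 0.16, adjusted p = 0.0519). The fold change of Cd8a reversed against other T cells with Cd4 alone, and that of Cd4 against those with Cd8 alone, since these cells were chosen for lacking that gene. Cd27, a costimulatory receptor of naive and memory T cells, was lower (-1.21 ± 0.29). Dapl1, a gene of naive and memory T cells, had 0 UMIs and was at least 8.10-fold lower. Of the residency genes, Itga1, the collagen-binding integrin CD49a of liver-resident lymphocytes, was higher (1.80 ± 0.29, adjusted p = 5.75e-08), and Cxcr6, which holds NKT cells in liver sinusoids, did not pass (0.15 ± 0.20, adjusted p = 0.820). Cxcr6 UMIs were found in 77.3% of invariant NKT cells and 58.3% of other T cells (61.4% and 44.0% thinned), against 0.352% of B cells.

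Outside the lists, the largest differences by the naming rule included Lmo4 (2.87 ± 0.32), a LIM-domain cofactor, Rbpms (2.88 ± 0.33), an RNA-binding protein, and Styk1, an NK cell kinase-like receptor (3.51 ± 0.54). On the lower side stood Penk, which encodes proenkephalin (-6.64 ± 0.58), Rgs16 (-5.63 ± 0.49), Il1r2 (-5.32 ± 0.74) and, with 0 UMIs in the 4 livers fitted, the chemokine Ccl1 at least 43.7-fold and Igfbp4 at least 22.4-fold lower. In Control liver 25, outside the fit, Ccl1 stood at 62.2 CPM in invariant NKT cells and 0 in other T cells. Constant segments of the gamma chain, named after their values were seen, were higher: Tcrg-C1 by 3.96 ± 0.48 and Tcrg-C4 by 2.93 ± 0.42, with Tcrg-C1 in 35.2% of invariant NKT cells. These segments are near-identical, and reads may have been shared among them. Of the 20 MHC class I genes none passed, with a median of -0.07. Of 56 interferon genes 5 were higher, among them Ly6c2 (1.23 ± 0.14) and Ifit3 (0.97 ± 0.22), and 3 lower, among them Ifi27l2a (-0.75 ± 0.12), with a median of 0.22. Proliferation genes were lower for 7 of 17 and higher for none, with a median of -1.15. Of 7 SLAM pathway genes, which guide NKT cell development, Slamf6 was lower (-1.19 ± 0.34). Dissociation stress genes numbered 2 higher and 3 lower of 19, with a median of -0.11. Some lower genes belong to other cells: of myeloid markers 6 of 12 were lower and 1 higher, of erythroid markers 4 of 5 and of B cell markers 2 of 5 were lower. Summed myeloid markers, without barcodes holding at least 10 UMIs of myeloid or B cell markers, ran from 252 to 777 CPM in invariant NKT cells and 261 to 417 CPM in other T cells, and with those barcodes left out 681 genes passed, 552 of them among the 642, and 72 of 73 named genes kept their call.

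**Figure D3:**
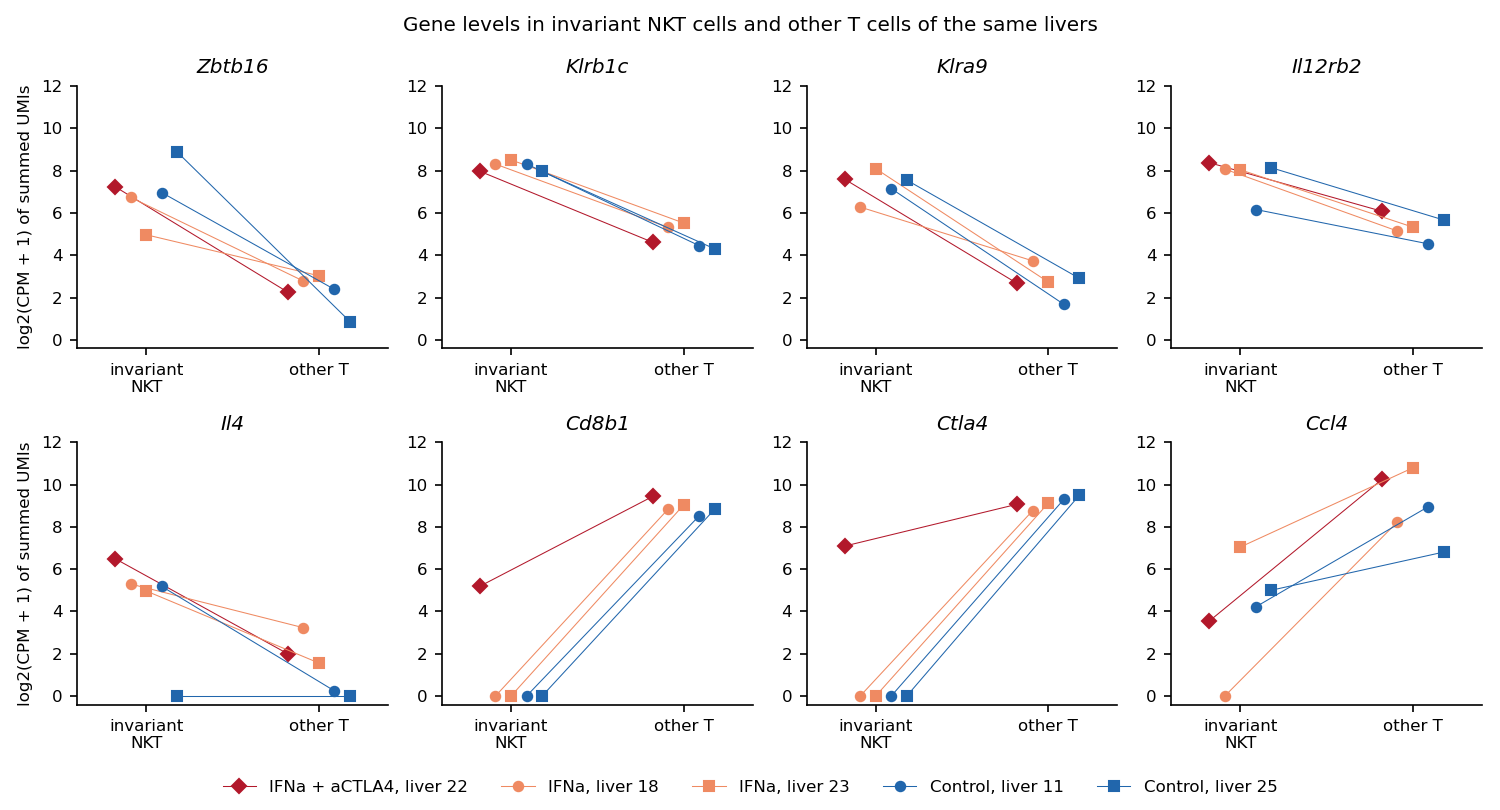
Levels of 8 genes, as log2(CPM + 1) of the summed UMIs of a class in a liver, in invariant NKT cells (left of each panel) and other T cells (right). Lines join the classes of a liver, and colours give the treatment. Zbtb16, Klrb1c, Klra9 and Il12rb2 are higher in invariant NKT cells of all 5 livers, and Cd8b1, Ctla4 and Ccl4 are lower in all 5.

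The closest other T cells were those with at least 1 UMI of Klrb1c (449 cells), and against them the pattern of NK receptors turned. Of these 449, 132 had no alpha chain contig, so the rule could not judge them. Zbtb16 was found in 6.41% of all 827 other T cells with no alpha contig and in 1.29% of the 4720 with one. Whether cells with an unread invariant chain are among them was not tested. Of 5938 genes tested 114 passed (1.92%), 47 higher (0.792%) and 67 lower (1.13%), and 43, 48, 72 and 179 passed without livers 22, 18, 23 and 11. Of 21 NK receptors none was higher and 8 were lower, with a median of -0.96 and -0.01 over all genes. Klra7, a Ly49 receptor, stood in invariant NKT cells at 78.3 CPM in IFNa + aCTLA4 liver 22, 28.7 and 70.6 CPM in IFNa livers 18 and 23, and 35.3 and 31.1 CPM in Control livers 11 and 25, against 434 CPM in liver 22, 526 and 420 CPM in livers 18 and 23, and 430 and 249 CPM in livers 11 and 25 in Klrb1c-bearing other T cells. The classes did not overlap (-2.98 ± 0.27, adjusted p = 7.88e-05). Because the comparison cells were chosen for an NK receptor and the invariant NKT cells were not, this list is not on an equal footing, and Klrb1c itself was not tested. Eomes was at 3.56 CPM in liver 22 and 0 elsewhere in invariant NKT cells, against 77.8 CPM in liver 22, 97.5 and 91.7 CPM in livers 18 and 23, and 130 and 15.1 CPM in livers 11 and 25 in the Klrb1c-bearing cells (-5.49 ± 0.61, adjusted p = 0.000217).

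Several genes were higher in invariant NKT cells than in these Klrb1c-bearing cells. Cxcr6 stood at 537 CPM in liver 22, 488 and 434 CPM in livers 18 and 23, and 176 and 280 CPM in livers 11 and 25, against 151 CPM in liver 22, 104 and 97.4 CPM in livers 18 and 23, and 63.3 and 151 CPM in livers 11 and 25 in Klrb1c-bearing other T cells, and was higher by 1.91 ± 0.19 (edgeR adjusted p = 0.000108). Cd40lg was higher by 2.94 ± 0.30 (adjusted p = 0.000108), Lmo4 by 2.85 ± 0.33 (adjusted p = 0.000283), Id2 by 1.14 ± 0.15 (adjusted p = 0.000939) and Il4 by 4.71 ± 0.83 (adjusted p = 0.00735). Zbtb16 was higher by 2.35 ± 0.43 (adjusted p = 0.010), but not past the threshold without liver 22 (adjusted p = 0.357). Its level in Klrb1c-bearing other T cells was 15 CPM in liver 22, 27.6 and 23.9 CPM in livers 18 and 23, and 10.0 and 0 CPM in livers 11 and 25, which is below the invariant NKT value of every liver.

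NK cells were taken as barcodes with an Ncr1 UMI, no receptor chain and no CD3 UMI (1314 cells). They differed in T cell and NK cell genes, partly because they were chosen for an NK receptor and for lacking T cell receptor transcripts. The class was not divided further, for example by Eomes, and Cxcr6 UMIs were found in 10.3% and Il7r UMIs in 11.3% of it. Whether other Ncr1-bearing cells are among them was not tested. Of 9152 genes tested 506 passed (5.53%), 237 higher (2.59%) and 269 lower (2.94%), and 324, 254, 359 and 560 passed without livers 22, 18, 23 and 11. T cell genes were higher in invariant NKT cells, such as Bcl11b, a T cell commitment factor (4.14 ± 0.49), Cd6 (6.22 ± 0.56) and Il7r (3.62 ± 0.29), as were Cxcr6 (3.26 ± 0.31) and Zbtb16 (2.39 ± 0.38, adjusted p = 0.000136). Eomes, the NK cell T-box factor, was lower (-7.05 ± 0.52). Of 22 NK receptors 2 were higher and 13 lower, with a median of -1.40. Klrb1c stood at 249 to 363 CPM in invariant NKT cells and 668 to 850 CPM in NK cells (-1.27 ± 0.18, adjusted p = 2.69e-05), and Klra8 was lower by 3.75 on the log2 scale (-3.75 ± 0.32). Klra4, at 0 UMIs in the 4 livers fitted, was at least 76.4-fold lower. Klra9 was not past the threshold (-0.25 ± 0.25, adjusted p = 0.732), at 76.5 to 272 CPM in invariant NKT cells and 190 to 215 CPM in NK cells. Gzma stood in invariant NKT cells at 46.3 CPM in liver 22, 95.7 and 887 CPM in livers 18 and 23, and 17.6 and 0 CPM in livers 11 and 25, against 5987 CPM in liver 22, 8725 and 5938 CPM in livers 18 and 23, and 5845 and 5392 CPM in livers 11 and 25 in NK cells (-5.35 ± 0.44, adjusted p = 9.27e-09). Prf1 was lower as well (-3.51 ± 0.27).

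The invariant NKT cells were not alike among themselves. A grouping made after their values were seen, and given with no test, set the 46 cells with Klrb1c beside the rest. Among these 46, Ly6c2, a Ly6 surface protein of activated lymphocytes, was found in 44 (3574 CPM), Ccl5 in 41 (4600 CPM), Fasl in 41, Tbx21 in 36, Klra9 in 21 (271 CPM) and Ifng in 21 (179 CPM). Zbtb16 was found in 19 of them, at 95.5 CPM. Among the 42 cells without Klrb1c, Ly6c2 was found in 27 (2286 CPM), Ccl5 in 22 (1856 CPM), Fasl in 27, Tbx21 in 19, Klra9 in 6 (60.3 CPM), Ifng in 4 (24.1 CPM) and Zbtb16 in 14 (189 CPM). The 46 cells held 324596 UMIs in sum and the 42 cells 248924, so detection also differs with depth. The groups differ in their livers too: cells with both Klrb1c and Ly6c2 ran from 40.5% in liver 22 to 70.6% in liver 23. Most cells with Il17rb, Tmem176a or Tmem176b, genes of the NKT17 list, lay outside the group with Klrb1c. Il17rb, which encodes a chain of the receptor for interleukin 25, was found in 7 of the 88 cells, and 1 of these 7 had Klrb1c. Tmem176a was found in 18 cells, of which 5 had Klrb1c, and Tmem176b in 21, of which 7 had it. Icos was found in 47 cells, of which 16 had Klrb1c, and Il4 in 17, of which 6 had it. With a median of 5620.5 UMIs a cell, a gene at 100 CPM or less is often missed, so absence in a cell is not absence of expression.

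Against other T cells, several genes of the NKT17 list were higher in the summed counts: of 14 tested 6 were higher and 1 lower, with a median of 1.07. Il17a and Il17f, the interleukin 17 genes of this list, were not among those tested and had no UMI in any of the 88 cells. Tmem176a stood at 78.3 CPM in IFNa + aCTLA4 liver 22, 95.7 and 60.5 CPM in IFNa livers 18 and 23, and 370 and 124 CPM in Control livers 11 and 25, against 18.7 to 44.0 CPM in other T cells, and was higher by 1.98 ± 0.31 (edgeR adjusted p = 2.78e-08). In liver 11 it fell to 187 CPM without the barcodes that held RNA of another cell type. Il17rb was higher by 4.36 ± 0.74, and not past the threshold without liver 22 (adjusted p = 0.0731). Of 22 NKT1 genes 10 were higher and 3 lower, with a median of 0.67, and of 13 NKT2 genes 2 were higher and 3 lower, with a median of -0.08. Among all 11180 genes tested 1.91% were higher and 3.83% lower.

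**Figure D4:**
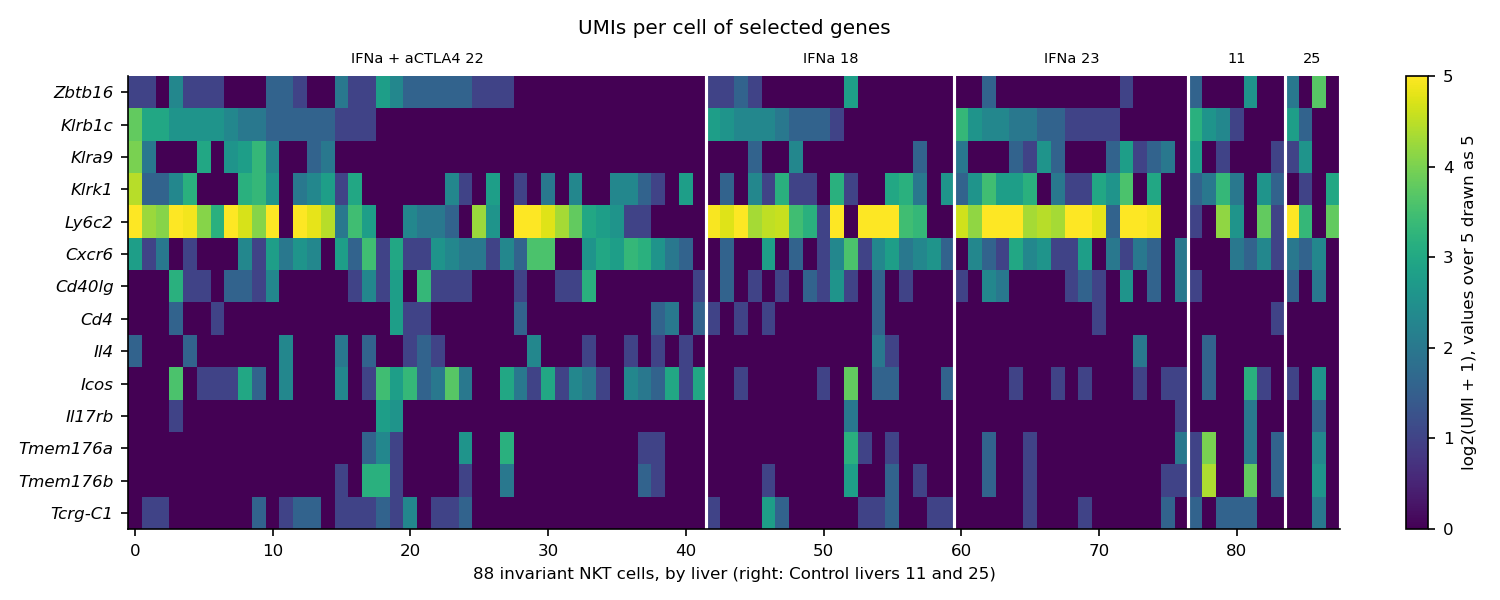
UMIs per cell, as log2(UMI + 1) with values over 5 drawn as 5, of 14 genes in the 88 invariant NKT cells, ordered by liver from IFNa + aCTLA4 (left) through IFNa to Control (right), and within a liver by Klrb1c. Cells with Klrb1c mostly have Ly6c2, and most cells with Il17rb, Tmem176a or Tmem176b have no Klrb1c.

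Treatment was compared within invariant NKT cells, where the cells are few. With the planned fit (IFNa livers 18 and 23, IFNa + aCTLA4 liver 22 and Control liver 11), 73 of 2762 genes (2.64%) passed for IFNa over Control, 17 higher (0.615%) and 56 lower (2.03%). For IFNa + aCTLA4 over Control 61 passed (2.21%), 21 higher (0.76%) and 40 lower (1.45%). The lower genes were led by those of dendritic cells. In Control liver 11, 1 of 7 barcodes held 205 UMIs of Cst3, 187 of Cd74, 109 of H2-Aa, 88 of Fscn1 and 71 of Ccr7 among 18982 UMIs. In all, 4 of the 88 barcodes, 2 in liver 11 and 2 in liver 22, held at least 10 UMIs of myeloid or B cell markers. With these left out, and livers with at least 3 cells taken so that Control had both livers, 7 of 3101 genes (0.226%) passed for IFNa over Control, 5 higher (0.161%) and 2 lower (0.0645%), and 10 (0.322%) for IFNa + aCTLA4 over Control, 9 higher (0.29%) and 1 lower (0.0322%). This fit was chosen after seeing the data, and the values below are from it unless said otherwise. It was not refitted without single livers. Liver 22 was the only one of its group and was assumed to vary like the others.

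The interferon-induced genes Ifi27l2a, Ly6a and Ly6c2 were higher in IFNa livers. Ifi27l2a, an interferon-induced mitochondrial protein (chr12:103442167-103443680), stood at 4004 CPM in IFNa + aCTLA4 liver 22, 3741 and 3297 CPM in IFNa livers 18 and 23, and 598 and 311 CPM in Control livers 11 and 25. Treated and Control livers did not overlap. The log2 fold change was 3.09 ± 0.44 for IFNa over Control (edgeR adjusted p = 4.32e-09) and 3.25 ± 0.47 for IFNa + aCTLA4 over Control (adjusted p = 1.90e-08). Ly6a, which encodes Sca-1, stood at 1522 CPM in liver 22, 1358 and 716 CPM in livers 18 and 23, and 149 and 187 CPM in livers 11 and 25, again with no overlap. It was higher by 2.73 ± 0.48 for IFNa (adjusted p = 1.70e-05) and by 3.25 ± 0.51 for the combination (adjusted p = 2.03e-07). With mixed barcodes kept and livers with at least 3 cells, Ly6a missed the threshold for IFNa without liver 18 (adjusted p = 0.211) or liver 22 (0.0524). Ly6c2 stood at 2451 CPM in liver 22, 4219 and 4406 CPM in livers 18 and 23, and 1345 and 1710 CPM in livers 11 and 25, and was higher for IFNa by 1.61 ± 0.38 (adjusted p = 0.0109) but did not pass for the combination (0.77 ± 0.44, adjusted p = 0.929). In the same fits with mixed barcodes kept it missed the threshold without liver 18 (0.0870), liver 22 (0.0622) or liver 23 (0.448). In the planned fit, with at least 5 cells, leaving out liver 22 left liver 11 as the only Control beside the IFNa livers. The log2 fold changes were then 3.43 for Ly6a and 2.61 for Ly6c2. That fit kept the mixed barcodes, with which Ly6c2 stood at 652 CPM in liver 11. Klrc1, which encodes the inhibitory receptor NKG2A, stood at 457 CPM in liver 22, 545 and 575 CPM in livers 18 and 23 and at 0 in both Control livers (adjusted p = 2.13e-08 for IFNa). Its UMIs in Control liver 11 lay in the 2 barcodes left out: with them Klrc1 stood at 159 CPM there, and the adjusted p for IFNa in the planned fit was 0.0444. Klrc2 is a near-identical gene.

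As a group, of 47 interferon genes tested 3 were higher for IFNa over Control and none was lower, 44 had a positive fold change, and the median was 1.08, against 0.03 over all genes. For IFNa + aCTLA4 over Control 2 were higher, 39 were positive, and the median was 0.84 against -0.01. Both IFNa livers stood above both Control livers for 33 of 47 interferon genes (70.2%) and for 528 of 3101 genes (17.0%). The summed level of the list of 57 genes in invariant NKT cells was 19351 CPM in liver 22, 22052 and 22022 CPM in livers 18 and 23, and 10647 and 7215 CPM in livers 11 and 25. In other T cells, with mixed barcodes left out, it was 18298 CPM in liver 22, 17594 and 17963 CPM in livers 18 and 23, and 6806 and 7227 CPM in livers 11 and 25. In both classes all treated livers stood above both Control livers. The fit of other T cells kept the mixed barcodes, so its counts are not on the same footing as those of the 47 genes above. In it, 63 of 12986 genes passed for IFNa over Control (0.485%), 57 higher (0.439%) and 6 lower (0.0462%). Of 56 interferon genes 33 were higher there, with a median of 1.42. The difference in the IFNa effect between the classes passed for 68 of 12211 genes (0.557%), with liver 11 as the only Control. The log2 fold change was higher in invariant NKT cells for 5 (0.0409%) and lower for 63 (0.516%). Lower here includes larger falls, such as that of Fscn1 (-8.17 in invariant NKT cells in the planned fit). With the mixed barcodes left out, the difference passed for none over livers with at least 5 cells and 3 over those with at least 3.

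**Figure D5:**
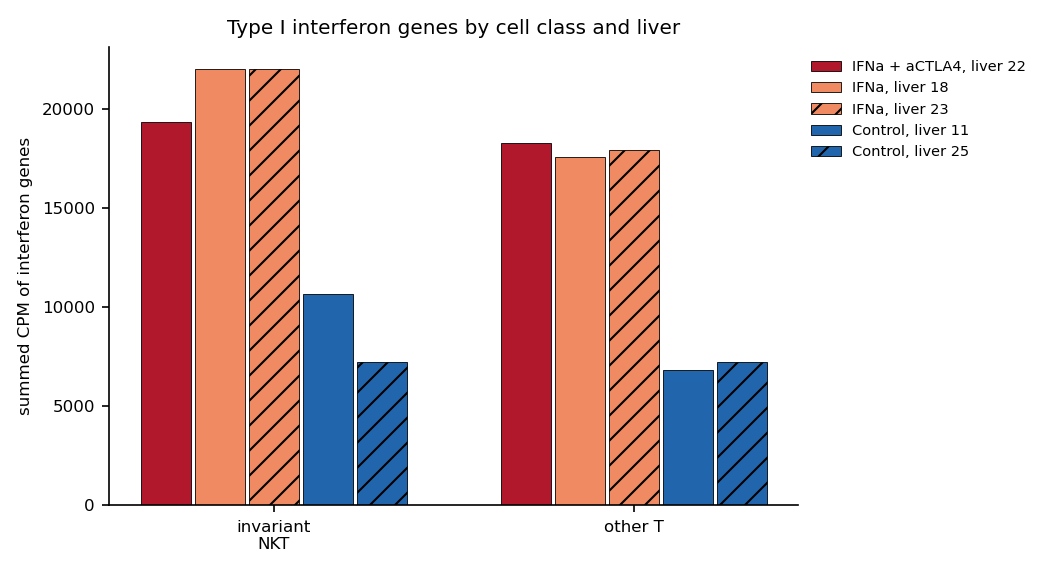
Summed level (CPM) of 57 interferon-induced genes by liver in invariant NKT cells (left) and other T cells (right), without barcodes that held RNA of another cell type. Each bar is 1 liver, and colours give the treatment. In invariant NKT cells the treated livers stand at 19351 CPM or more and the Control livers at 10647 CPM or less.

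Lower in IFNa than in Control were Ramp1, a chain of the receptor for the neuropeptide CGRP (47.8 and 40.3 CPM in IFNa livers 18 and 23, against 336 and 311 CPM in Control livers 11 and 25, adjusted p = 0.0246) and Gm19951, a gene model with no stated function here (325 and 524 CPM in IFNa livers 18 and 23, against 710 and 2550 CPM in Control livers 11 and 25, adjusted p = 0.000194). For Gm19951, 1 cell of liver 25 held 49 UMIs. In the planned fit, without liver 25 and with mixed barcodes kept, neither passed (adjusted p of 0.363 for Ramp1 and 0.703 for Gm19951). Gzma passed for IFNa over Control (adjusted p = 2.12e-05), with 95.7 and 887 CPM in livers 18 and 23 against 37.4 and 0 CPM in livers 11 and 25, so most of its transcript came from liver 23.

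The checkpoint gene Ctla4 was seen in invariant NKT cells of the combination liver only, a description of 1 liver. Its UMIs were found in 12 of 42 cells of IFNa + aCTLA4 liver 22, in 0 of 35 cells of the IFNa livers and in 0 of 11 cells of the Control livers. In edgeR's planned fit, with mixed barcodes kept, it did not pass for IFNa + aCTLA4 over Control (adjusted p = 0.468). In other T cells Ctla4 was found in 60.5% of cells in liver 22, 36.8% and 54.3% in livers 18 and 23, and 48.4% and 52.1% in livers 11 and 25. Within liver 22 it was found in 5 of 8 invariant NKT cells with another alpha protein and in 7 of 34 with the most frequent one. Icos was found in 30 of 42 cells of the combination, 12 of 35 of IFNa and 5 of 11 of Control. Il4 was found in 13 of 42 cells of the combination, 3 of 35 of IFNa and 1 of 11 of Control, and Zbtb16 in 22, 7 and 4 of them. The 1 Control cell with Il4 was a barcode of liver 11 that also held myeloid RNA. These counts pool the cells of a group over its livers and are a description. In summed counts Zbtb16 was not highest in the combination, at 149 CPM in liver 22 against 123 and 466 CPM in Control livers 11 and 25.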

How the data were processed

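Raw UMI counts by gene and cell barcode, and filtered receptor contigs with their reads and UMIs, were deposited by the authors for each liver. The submitters' processing notes name Cell Ranger 7.0.1 and the build mm10. Cells needed 200 or more genes and no more than 15% of UMIs from mitochondria, and simulated doublets (0.8% per 1000 cells) set the number removed, which included 9 of the 97 invariant barcodes. UMIs were summed per liver and class, for livers with at least 5 cells of each class, and tested with edgeR 4.0.16 (quasi-likelihood F test, TMM, filterByExpr, Benjamini-Hochberg over all genes tested, liver as a block between classes) in R 4.3.3. The 252 receptor segments were not counted among the named genes. Alternatives used DESeq2 1.42.0 and limma 3.58.1. Shares were compared by exact permutation in scipy 1.17.1, and intervals are exact binomial at 95%, which, like the floor of 3 counts, cover counting error only. For shares of cells, each cell was thinned to 2400 UMIs.

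Summed invariant NKT counts were 280940 UMIs in IFNa + aCTLA4 liver 22, 104527 and 99174 in IFNa livers 18 and 23, and 56724 and 32155 in Control livers 11 and 25, which limits the precision for genes of low level. In simulated data, 48 and 69 of 100 genes changed by 2 and 3 on the log2 scale were recovered for invariant NKT cells against other T cells, and 31 and 62 of 100 for IFNa against Control in livers with at least 3 invariant NKT cells. The simulation gave every gene the same dispersion and had no liver effect or mixed barcodes, so recovery in the real fits may differ.

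Genes were named if they were in one of 25 lists, or were among the largest differences past an adjusted p of 0.05 with at least 50 CPM in the higher class and the same direction in every liver (against Control, no overlap of livers). The cells, the lists and the tests were chosen with earlier results of these data known. Mixed barcodes are those with at least 10 UMIs over myeloid and B cell markers, among them Lyz2, Csf1r, Cst3, Cd79a and Ms4a1. Some genes are not reported here. Gene coordinates are from the GENCODE annotation of GRCm38.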

Additional observations from a re-analysis of the deposited data

Results flagged for a closer look

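A test of whether the IFNa effect differed between invariant NKT cells and other T cells passed for 68 of 12211 genes (0.557%) in edgeR, 5 higher and 63 lower in invariant NKT cells. The IFNa effect of Fscn1 was lower in invariant NKT cells than in other T cells, with a difference of -9.35 on the log2 scale, and that of Cst3 likewise, with -5.59. Both are dendritic or myeloid genes of 1 mixed barcode in Control liver 11. With mixed barcodes left out, 3 genes passed over livers with at least 3 cells and none over livers with at least 5 (352 had an unadjusted p under 0.05, and with mixed barcodes kept DESeq2 called 15). The IFNa effect of Ly6a, also among the 68 genes, was higher in invariant NKT cells by 2.60 ± 0.62. That fit took livers with at least 5 cells, where liver 11 was the only Control. Over livers with at least 3 cells, Ly6a lost its call without Control liver 11 (difference 1.55) and without IFNa liver 18 (1.45). With mixed barcodes left out it lost its call too.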

How the results depend on the processing

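No paired analysis was possible because the groups share no liver number. For invariant NKT against other T cells the 642 genes became 301 in DESeq2, 407 in limma voom and 398 with doublets kept, and ran from 316 to 699 with each liver left out in turn. Of 73 named genes past the threshold, 57 (limma voom) to 73 kept it in the alternatives that refitted them all. Calls against Klrb1c-bearing other T cells (114) were 60 in DESeq2, 286 with no filter on low counts, 179 with at least 10 cells, 32 with doublets kept, 57 with exactly 1 beta chain, 221 with mixed barcodes left out, and 43 to 179 without a liver. Against NK cells (506) they were 278 with doublets kept, 809 with mixed barcodes left out, and 254 to 560 without a liver.

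For IFNa over Control (73) the count was 14 in DESeq2, 22 with no filter, 39 with at least 3 cells, 11 with doublets kept, 13 and 7 with mixed barcodes left out (at least 5 and at least 3 cells), and 2 to 83 without a liver (2 to 40 with at least 3 cells and livers 22, 18, 23 or 11 left out). For IFNa + aCTLA4 over Control (61) it was 11 in DESeq2, 9 with no filter, 25 with at least 3 cells, 0 with doublets kept (205 at an unadjusted p under 0.05), 16 and 10 with mixed barcodes left out, and 9 to 61 without a liver. For the difference of the IFNa effect between classes (68) it was 15 in DESeq2, 27 with at least 3 cells, 138 with doublets kept, 0 and 3 with mixed barcodes left out, and 3 to 69 without a liver (3 to 31 with at least 3 cells and livers 22, 18, 23 or 11 left out). Fscn1 then turned to 9.21 with mixed barcodes left out and 6.99 without Control liver 11.

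TRBV calls (6) were 12 over distinct receptors, 10 with exactly 1 beta chain and 2 to 6 without a liver, and TRBJ calls 0 to 1. The IFNa minus Control difference in share of alpha-chain barcodes turned to 0.345 with a TRB contig required and 0.272 over TRB barcodes, and ran from -1.32 to 1.26 without a liver. That of all cells turned to -0.00839 with doublets kept and ran from -0.161 to 0.182. Against other T cells with Cd4 alone, Gzma (1.63), Prf1 (0.83) and Cd8a (8.40) reversed, and against those with Cd8 alone Cd4 did (10.16). Where no alternative's own construction shows it, the cause was not tested. For treatment, fits with at least 10 cells, and with at least 5 cells without Control liver 11 or either IFNa liver, were not run because a group was left without enough livers.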
